A study of Mus musculus with 24 samples.

Results

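Proteoglycans are proteins that carry long, negatively charged sugar chains, the glycosaminoglycans, and they set how much water the extracellular matrix of the vessel wall holds and how its collagen fibrils are spaced. RNA of 10 genes was followed here in the mouse aorta, called proteoglycan genes below although Hapln1 encodes a link protein. They are the large aggregating proteoglycans aggrecan (Acan) and versican (Vcan) with the link protein Hapln1, the small leucine-rich proteoglycans decorin (Dcn), lumican (Lum), fibromodulin (Fmod), Prelp, osteoglycin (Ogn) and asporin (Aspn), and the cell surface proteoglycan syndecan 4 (Sdc4). They were chosen by gene symbol, as a family proposed with earlier results of these data known, and are 10 of the 41128 genes in the count table. All 10 passed the filter on low counts, which left 16316 genes to test.

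Each of 24 mice gave 1 total RNA library of its aorta, to study how the beta catalytic subunit of calcineurin, encoded by Ppp3cb, bears on vascular changes under angiotensin II (AngII), a peptide hormone that raises blood pressure. Calcineurin is a calcium-activated phosphatase that sends NFAT transcription factors to the nucleus. Mice were wildtype (WT) or Ppp3cb knockout (KO) from the line B6,129S6-Ppp3cbtm1Jmk/J, male or female, and 5 months old. Treated mice received AngII from osmotic minipumps at 500 ng per kg body weight per min for 4 weeks. Genotype, treatment and sex gave 8 groups of 3 libraries. Each condition below (WT control, WT AngII, KO control, KO AngII) pools both sexes and has 6 libraries. Sham pumps in controls are not mentioned in the labels, which also name no promoter, Cre or tissue restricting the knockout.

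In cartilage, aggrecan binds hyaluronan in large aggregates that link proteins such as Hapln1 stabilise. Versican is the corresponding large proteoglycan of arteries and is made by smooth muscle cells and fibroblasts. The small leucine-rich proteoglycans bind collagen fibrils and govern their width and spacing, and adventitial fibroblasts are among the cells of the aorta that make them. Syndecan 4 spans the cell membrane, carries heparan sulfate and helps anchor cells at focal adhesions.

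Totals were 1523328 to 6352365 counts per library (median 3835993), of which protein-coding genes held 36.27% to 74.56%. The KO control females were the shallowest group, with smooth muscle marker sums down to 6308 CPM (counts scaled to a common library size after TMM normalization) against 12177 to 19061 CPM in WT controls. Ppp3cb RNA was 41.7 ± 8.25 CPM in WT controls and 21.0 ± 7.41 CPM in KO controls (SD, n = 6 each), lower by 1.06 ± 0.22 on the log2 scale (SE, edgeR quasi-likelihood test, adjusted p = 0.0297). Under AngII it was 42.2 ± 13.8 CPM in WT and 21.6 ± 5.20 CPM in KO (adjusted p = 0.0394). The remaining KO signal may include reads outside the altered part of the gene, which was not tested. Counts on chromosomes 9, X, Y and MT are 0 in every library, so biglycan and other proteoglycans encoded there are not analysed here. On chromosome 8 counts end with a gene that starts at 95.86 Mb, and all 308 protein-coding genes beyond it are at 0, among them Nrp1, Has3, Chst5, Adamts18 and the markers Cdh5 and Acta1. Lists below count the genes that were tested. Markers of the aorta's cells were well above 0: the smooth muscle myosin Myh11 had a median of 7523 CPM in WT controls and the fibroblast gene Gsn 998 CPM.

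Calcineurin's NFAT factors recognise a short core, GGAAA, so the 250 bases before the RefSeq start (GRCm38.p6) are shown for Acan and Sdc4, which were called under AngII, and for the neighbours Fmod and Prelp, whose levels moved together. Each is written 5′ to 3′ on the gene's strand, with GGAAA or its reverse complement TTTCC in capitals.
Acan, chr7:79052976-79053225, plus strand: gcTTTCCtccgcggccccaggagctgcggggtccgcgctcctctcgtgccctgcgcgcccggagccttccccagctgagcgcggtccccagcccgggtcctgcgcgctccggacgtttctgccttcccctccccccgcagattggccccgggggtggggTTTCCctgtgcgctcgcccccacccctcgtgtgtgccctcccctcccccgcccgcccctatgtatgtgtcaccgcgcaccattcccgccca
Sdc4, chr2:164443189-164443438, minus strand: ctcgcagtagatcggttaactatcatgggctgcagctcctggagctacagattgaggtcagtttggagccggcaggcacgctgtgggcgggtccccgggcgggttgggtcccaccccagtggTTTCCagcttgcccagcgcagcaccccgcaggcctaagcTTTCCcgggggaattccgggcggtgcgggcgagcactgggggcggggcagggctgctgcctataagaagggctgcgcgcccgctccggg
Fmod, chr1:134037004-134037253, plus strand: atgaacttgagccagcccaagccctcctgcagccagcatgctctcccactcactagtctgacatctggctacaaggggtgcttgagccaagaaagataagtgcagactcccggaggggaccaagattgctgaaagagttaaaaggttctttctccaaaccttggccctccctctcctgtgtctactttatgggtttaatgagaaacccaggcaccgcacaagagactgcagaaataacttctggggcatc
Prelp, chr1:133921402-133921651, minus strand: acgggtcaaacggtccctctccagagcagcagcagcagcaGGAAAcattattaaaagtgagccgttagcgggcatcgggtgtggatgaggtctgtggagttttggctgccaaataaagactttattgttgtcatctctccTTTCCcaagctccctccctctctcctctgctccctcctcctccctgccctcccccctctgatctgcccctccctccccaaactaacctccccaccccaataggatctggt
The Acan, Sdc4 and Prelp windows each held 2 matches and the Fmod window 0. Among the other members with a RefSeq entry, Vcan held 2, Hapln1 1, Ogn 1 and Aspn 0. In all, 8 of the 10 members had an entry. Over all 32851 promoter windows of this length, 55.6% held at least 1 match. The AP-1 motif TGANTCA, searched on both strands, was found in 0 of these 8 windows and in 6.75% of all windows. Matches are letters in a window and no evidence that a factor binds. The Sdc4 window lies inside the gene as GENCODE M21 draws it, within no exon, because GENCODE starts a transcript further upstream.

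The genes lie on 5 chromosomes of mm10, and 8 of the 10 sit beside another member. Dcn (chromosome 10, 97479609 to 97518143) and Lum (97565128 to 97572703) are 46.98 kb apart on the same strand with no protein-coding gene between them. Prelp (chromosome 1, 133910304 to 133921414, minus strand) and Fmod (134037254 to 134048277, plus strand) are 115.8 kb apart, again with none between. Hapln1 (chromosome 13, 89539796 to 89611652) and Vcan (89655312 to 89742509) are separated by 43.66 kb. Aspn (chromosome 13, 49544443 to 49567565) and Ogn (49608046 to 49624501) are 40.48 kb apart with 1 protein-coding gene between. Acan (chromosome 7, 79053483 to 79115099) and Sdc4 (chromosome 2, 164424247 to 164443887) stand alone. Prelp shares 350 exonic bases with the antisense gene Gm15851, which holds 44 counts over all libraries, and Aspn shares 7 with Cenpp, which holds 191. Whether the counting used strand is not given in the sources used here.

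Per kilobase of exon, the small leucine-rich proteoglycans made up most of the summed RNA of these 10 genes and the aggregating ones little. In WT controls Ogn stood highest at 161 ± 26.3 CPM per kb, followed by Dcn at 110 ± 31.7 and Prelp at 90.7 ± 20.9 (SD, n = 6). Sdc4 (24.04 ± 4.15), Aspn (20.3 ± 7.69), Fmod (18.4 ± 4.26) and Lum (13.98 ± 4.84 CPM per kb) followed, with neighbours in this order closer than their spread. Vcan was at 6.501 ± 1.48 CPM per kb. Acan, at 1.396 ± 0.704, and Hapln1, at 1.31 ± 0.759, were the lowest and did not differ beyond their spread. The steps larger than the greater SD of the pair were Ogn above Dcn, Prelp above Sdc4, Lum above Vcan and Vcan above Acan. This order and the shares below rest on the length used, all annotated exons of a gene merged (5838 bases for Dcn, 2566 for Ogn). Without division by length Dcn stood above Ogn in WT controls, at 641 ± 185 against 414 ± 67.4 CPM. The lengths of the transcripts present in the aorta were not tested.

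Under AngII in WT the lowest 3 kept their order, with other gaps between them, and the highest 3 lay within their spread. Dcn stood first at 140 ± 40.2 CPM per kb, with Ogn at 126 ± 39.0 and Prelp at 113 ± 34.6 within its spread. Acan reached 7.77 ± 5.06 CPM per kb and then lay beside Vcan at 8.99 ± 3.50, no longer beside Hapln1 at 2.18 ± 0.628. In KO controls Acan was at 2.46 ± 0.748 and Hapln1 at 2.40 ± 1.81 CPM per kb, and in KO under AngII Acan was at 5.67 ± 3.65 and Vcan at 8.14 ± 1.78. As a share of the summed per-length level of the 10 members, Acan had a median of 0.254% in WT controls and 1.14% in WT AngII, and of 0.542% and 1.01% in the KO. The 3 aggregating members together held 1.65% to 2.47% in WT controls and 2.61% to 5.12% in WT AngII. The share of each of the 3 alone overlapped between these conditions, that of Acan at 0.148% to 0.668% and 0.577% to 2.38%. A like share over all genes was not computed. In the KO the ranges of the 3 together were 2.35% to 3.84% in controls and 1.98% to 9.001% under AngII. The 6 small leucine-rich members held medians of 92.4% in WT controls, 88.2% in WT AngII, 91.8% in KO controls and 91.4% in KO AngII.

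**Figure D1:**
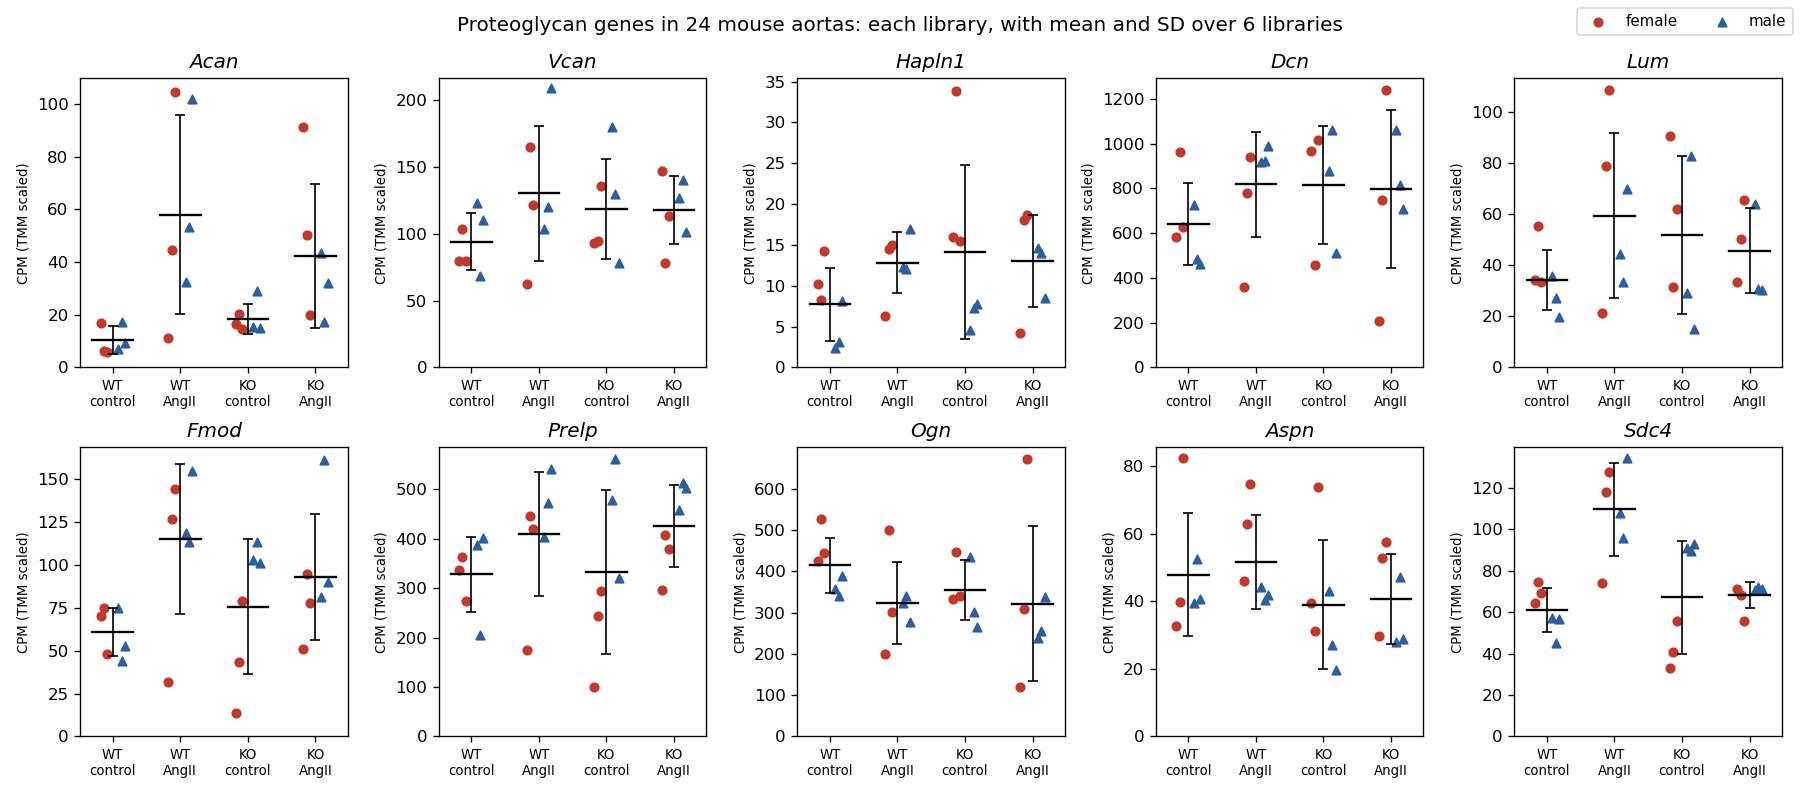
Level of each of the 10 proteoglycan genes (CPM, linear axes from 0) in every library of the 4 conditions, with females as circles, males as triangles, and the mean and SD of 6 libraries as bars. Acan lies at 5.78 to 17.2 CPM in WT controls and at 11.3 to 105 CPM in WT AngII, while the levels of Vcan, Ogn and Aspn overlap widely between conditions.

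AngII in WT aorta was accompanied by more aggrecan RNA. In WT control females Acan was at 16.9, 6.30 and 5.78 CPM, and in WT AngII females at 11.3, 44.5 and 105 CPM. In males the controls were at 7.10, 17.2 and 9.31 CPM and the AngII libraries at 32.5, 53.2 and 102 CPM. WT AngII female replicate 1 lay within the control range, and the other 5 AngII libraries lay above all 6 controls. The mean went from 10.4 ± 5.26 to 58.0 ± 37.8 CPM (SD, n = 6 each), a rise of 2.48 ± 0.42 on the log2 scale (SE), adjusted p = 0.00643 by edgeR's quasi-likelihood test. By p it ranked 4 of the 16316 genes. Acan kept its call in all 24 fits that each left out 1 library, at 2.01 to 2.80. The rise was 2.50 ± 0.60 in females and 2.47 ± 0.59 in males, neither of which passed alone (adjusted p = 0.291 and 0.272). Counts behind these values ran from 19 to 426 per library over the whole series. In bulk tissue, more cells of a type and more RNA per cell cannot be told apart.

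Syndecan 4 also rose. Its control levels were 64.5, 74.8 and 69.3 CPM in WT females and 57.1, 45.0 and 56.8 CPM in WT males. With AngII they were 74.1, 118 and 128 CPM in females and 108, 95.9 and 135 CPM in males. All but 1 AngII library, again female replicate 1, lay above all controls. The mean rose from 61.2 ± 10.6 to 110 ± 22.3 CPM, by 0.85 ± 0.17 on the log2 scale (edgeR, adjusted p = 0.0232, rank 17). This call was the less stable one and held in 15 of 24 fits without 1 library. It was lost without WT control female replicate 1 (adjusted p = 0.120), 2 (0.06972) or 3 (0.09103), without WT control male replicate 2 (0.129) or 3 (0.05616), without WT AngII female replicate 2 (0.148) or 3 (0.159) and without WT AngII male replicate 1 (0.05219) or 3 (0.134). The change stayed between 0.77 and 0.95 in all 24. It was 0.62 ± 0.24 in females (adjusted p = 1) and 1.09 ± 0.25 in males (adjusted p = 0.272).

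These were the 2 of 10 members called, both higher, against 0.208% of all tested genes called in either direction, 0.184% called higher and 0.0245% called lower. By unadjusted p, 5 members were under 0.05 (Acan, Fmod, Hapln1, Lum and Sdc4), against 6.71% of all genes. In all, 9 of the 10 had a positive change, with a median of 0.63, where the median over all tested genes was -0.01 and 48.77% were positive. The aggregating members had a median of 0.86 and the small leucine-rich ones of 0.33.

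Versican, the more abundant large proteoglycan, was not called. It ranged from 68.1 to 123 CPM (median 91.6) in WT controls and from 62.5 to 209 CPM (median 120) in WT AngII, which overlap, with a change of 0.46 ± 0.24 (adjusted p = 0.773). Hapln1, which ties aggrecan and versican to hyaluronan, ranged from 2.37 to 14.3 CPM (median 8.20) in controls and from 6.25 to 17.0 CPM (median 13.4) with AngII. Its change was 0.86 ± 0.38 (adjusted p = 0.678), and 3 of 6 AngII libraries lay above all controls. With 8 to 94 counts per library it was the most thinly counted member.

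Fibromodulin, which binds collagen fibrils and can carry keratan sulfate, came nearest to a call among the small leucine-rich members. WT controls ranged from 44.1 to 75.1 CPM (median 61.5) and WT AngII libraries from 31.5 to 155 CPM (median 123). In 5 of 6 AngII libraries it was above all controls, and female replicate 1 was below all of them. The change was 0.91 ± 0.30 (edgeR, adjusted p = 0.378, unadjusted 0.00492). Without that library it was 1.11 and passed (adjusted p = 0.0459). limma-voom with quality weights called it (adjusted p = 0.00579), as did edgeR with no count filter (0.01419).

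Prelp, a matrix protein that anchors basement membranes to collagen, ranged from 205 to 402 CPM (median 350) in WT controls and from 174 to 541 CPM (median 432) in WT AngII. In 5 of 6 AngII libraries it lay above all controls, but barely: the nearest libraries were at 402.5 CPM (AngII) and 401.8 CPM (control). The change was 0.30 ± 0.24 (adjusted p = 0.949). Lumican, which binds the same class of fibrils as fibromodulin, ranged from 19.8 to 55.2 CPM (median 33.8) and from 21.3 to 109 CPM (median 57.2), a change of 0.80 ± 0.35 (adjusted p = 0.670). For decorin, the main small proteoglycan on collagen type I fibrils, the ranges were 461 to 963 CPM (median 605) and 362 to 992 CPM (median 921), with a change of 0.35 ± 0.29 (adjusted p = 0.959). Osteoglycin was the member with a negative change, -0.35 ± 0.26 (adjusted p = 0.932), from 341 to 526 CPM (median 407) in controls and from 198 to 501 CPM (median 312) with AngII. Asporin, which binds TGF-beta, had ranges of 32.6 to 82.4 CPM (median 40.1) and 40.3 to 74.6 CPM (median 45.1) and a change of 0.09 ± 0.25 (adjusted p = 1).

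**Figure D2:**
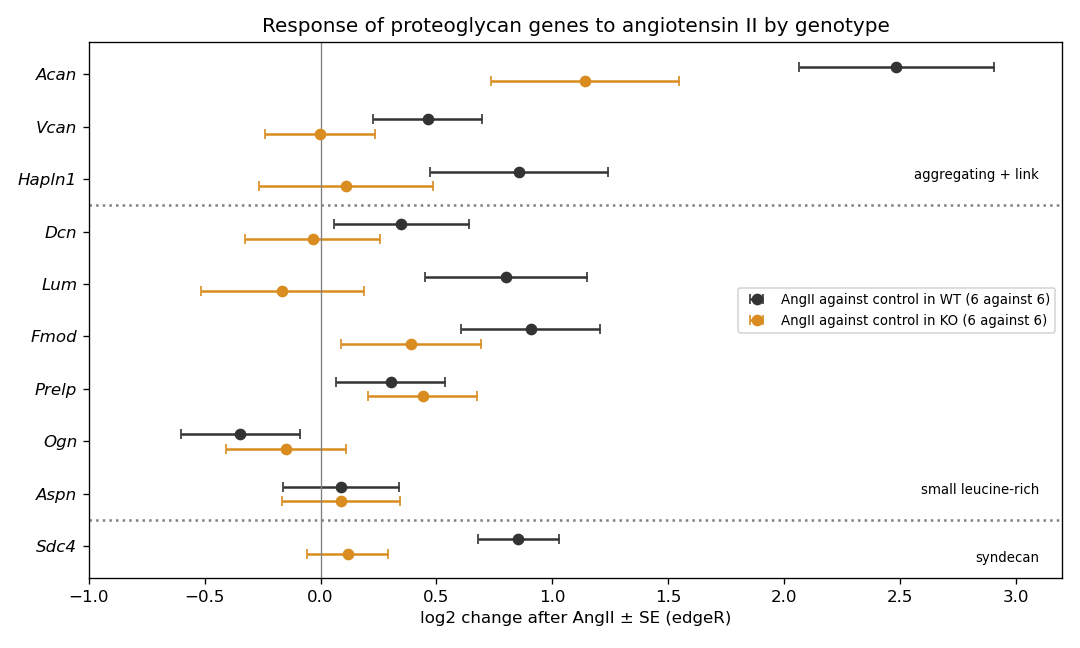
Log2 change of each proteoglycan gene after AngII, as a point with its standard error, in WT (dark) and in KO (orange), 6 libraries against 6 in each. Acan at 2.48 and Sdc4 at 0.85 in WT are the called values, and their values in the KO are 1.14 and 0.12.

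Markers of the aorta's cell types were set beside these changes. The fibroblast list, which holds no proteoglycan, had 9 of 11 tested genes higher and 3 called, the fibrillar collagen genes Col1a1 (1.46 ± 0.23), Col1a2 (1.16 ± 0.21) and Col3a1 (1.22 ± 0.23), named after their values were seen. Its sum went from 2824 to 4210 CPM (median 3397) to 4673 to 8839 CPM (median 6043). Without these 3 genes the sum was 1373 to 2153 CPM in controls and 1430 to 1795 CPM with AngII, which overlap. Macrophage markers summed to 87.2 to 129 CPM in controls and 130 to 232 CPM with AngII, with 9 of 10 higher and 0 called. Endothelial markers had 0 of 7 higher (median change -0.71), neural and Schwann markers 0 of 7 (median -1.61) and adipocyte markers 2 of 8 (median -0.12), with 0 called in these 3 lists. Of the smooth muscle markers 4 of 6 were higher and 0 called, and the sums overlapped (12177 to 19061 and 11351 to 19364 CPM). Skeletal muscle markers (2 of 4 higher, median change -0.36) and the 1 mesothelial marker tested, with a change of -4.00, were thinly counted, with 0 called. Their part in the proteoglycan changes was not tested.

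Acan is best known from cartilage, so cartilage markers were set beside it. Of 7 tested, 4 were higher under AngII in WT (median change 0.63) and 0 called. They summed to 5.89 to 19.8 CPM in WT controls and to 4.89 to 14.8 CPM in WT AngII, where Acan alone reached 11.3 to 105 CPM. Col2a1, the main cartilage collagen, had a median of 0.274 CPM in WT AngII and was at 0 in 3 of the 6 libraries. Matn1 was at 0 in 5 of these 6 libraries and Ucma in 5, and Col9a1, Col9a2, Cnmd and Matn3 in 3 each. Col11a2 (3.45 to 6.25 CPM), Col9a3 (0.287 to 2.75 CPM) and Snorc (0.2875 to 2.19 CPM) had counts in all 6. In WT controls Snorc was at 0 in 3 libraries, Col9a3 in 2, Matn1 in 1 and Col2a1 in 0. The part of these markers in the Acan change was not tested. In the KO controls the cartilage sum was more variable, from 3.40 to 88.5 CPM, highest in female replicate 1. The KO control females were at 88.5, 29.9 and 27.2 CPM and the males at 7.08, 15.97 and 3.40 CPM.

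The same comparison in the knockout asks whether the members respond without Ppp3cb. None of the 10 was called by edgeR, DESeq2 or limma-voom, and Acan was the 1 with an unadjusted p under 0.05. Of all tested genes, edgeR called 0%, DESeq2 16 genes and limma-voom 0, and 7.71% had an unadjusted p under 0.05. Acan was at 16.6, 20.2 and 14.4 CPM in KO control females and 91.3, 50.2 and 19.8 CPM in KO AngII females. In KO males it was at 15.4, 29.0 and 14.8 CPM in controls and 43.3, 17.2 and 32.1 CPM with AngII. In 4 of 6 AngII libraries it lay above all 6 KO controls. The means were 18.4 ± 5.59 and 42.3 ± 27.2 CPM, a change of 1.14 ± 0.41 (adjusted p = 0.477), with 1.65 ± 0.59 in females and 0.63 ± 0.56 in males. With no count filter edgeR called it (1.15, adjusted p = 0.0120).

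Sdc4 in KO controls was at 33.1, 41.0 and 56.0 CPM in females and at 90.9, 89.7 and 92.8 CPM in males. With AngII all 6 KO libraries lay between 55.7 and 72.3 CPM. The pooled change of 0.12 ± 0.17 (adjusted p = 0.932) thus averages 0.58 ± 0.25 in females and -0.35 ± 0.24 in males. The test of male minus female response gave -0.94 ± 0.35 (unadjusted p = 0.0119, adjusted p = 0.520). The KO control females were also the shallowest libraries and had low smooth muscle sums (6308, 10324 and 8380 CPM), whose part was not tested.

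The other members in the KO had changes of 0.44 ± 0.24 (Prelp, adjusted p = 0.677), 0.39 ± 0.30 (Fmod, 0.806), 0.11 ± 0.37 (Hapln1) and 0.09 ± 0.26 (Aspn), and of -0.002 ± 0.24 (Vcan), -0.03 ± 0.29 (Dcn), -0.15 ± 0.26 (Ogn) and -0.16 ± 0.35 (Lum). Decorin with AngII ranged from 209 CPM in KO AngII female replicate 1 to 1240 CPM in female replicate 3. Fmod and Prelp ranged from 13.4 to 114 CPM and from 99.3 to 561 CPM in KO controls, with both lows in female replicate 1. Over the 10 members 6 changes were positive with a median of 0.10, where all tested genes had a median of 0.01 and 51.36% positive. Medians were 0.11 for the aggregating and 0.03 for the small leucine-rich members.

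Between genotypes in control mice, 0 of 10 members were called by edgeR, DESeq2 or limma-voom and none had an unadjusted p under 0.05, against 0.221% of all genes called (0.202% higher, 0.0184% lower) and 9.73% with such a p. Acan was 0.83 ± 0.42 higher (adjusted p = 0.530): all 6 KO controls lay above the WT control median, and 2 lay above all WT controls. Hapln1 was 0.76 ± 0.39 higher (0.528), and 3 of 6 KO controls lay above all WT controls. These 3 were the females, at 15.5 to 33.8 CPM, where the KO control males were at 4.64 to 7.78 CPM. By sex the Hapln1 value was 1.01 ± 0.54 in females and 0.52 ± 0.56 in males. Vcan (0.33 ± 0.24), Dcn (0.36 ± 0.29), Lum (0.60 ± 0.35), Fmod (0.19 ± 0.30) and Sdc4 (0.05 ± 0.18) had positive values, and Prelp (-0.08 ± 0.24), Ogn (-0.22 ± 0.26) and Aspn (-0.33 ± 0.25) negative ones. The value of Sdc4 is the mean of -0.68 ± 0.25 in females (adjusted p = 0.181) and 0.78 ± 0.25 in males (adjusted p = 1). Beside this, macrophage markers were higher in 10 of 10 (median 1.24) and cartilage markers in 7 of 7 (median 1.76), with 0 called in either list, and smooth muscle markers in 0 of 6 (median -0.31). Their part was not tested.

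Under AngII, 0 of 10 members were called by edgeR between genotypes, against 0.355% of all genes (0.306% higher, 0.0490% lower), and 1, Sdc4, had an unadjusted p under 0.05, against 7.75%. Sdc4 was the member that separated the genotypes: all 6 KO AngII libraries (55.7 to 72.3 CPM, median 71.0) lay below all 6 WT AngII libraries (74.1 to 135 CPM, median 113), which was so for 0.276% of tested genes. The gap between the nearest libraries, 72.3 and 74.1 CPM, was small. Its difference was -0.69 ± 0.17, with -0.71 ± 0.24 in females and -0.66 ± 0.24 in males. The adjusted p was 0.0781 by edgeR's quasi-likelihood test, 0.0142 by DESeq2 and 0.00288 by limma-voom with quality weights. Over the 24 fits without 1 library edgeR's adjusted p ran from 0.0314 to 0.303, and it passed in 2 of them. Leaving out any 1 of the 6 KO AngII libraries gave 0.126 to 0.2097. edgeR called it without WT AngII female replicate 1 (-0.81, adjusted p = 0.0314), with 1 KO control female left out (replicate 1, -0.69, 0.04814) or both shallow ones (replicates 1 and 3, -0.71, 0.03613).

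For Acan the difference of KO from WT under AngII was -0.51 ± 0.39 (adjusted p = 0.911), with all 6 KO values (17.2 to 91.3 CPM) inside the WT range. The differences of the others were small against their errors: -0.37 ± 0.35 for Lum, -0.33 ± 0.30 for Fmod, -0.33 ± 0.25 for Aspn, -0.14 ± 0.24 for Vcan, -0.03 ± 0.29 for Dcn, -0.02 ± 0.26 for Ogn, 0.02 ± 0.37 for Hapln1 and 0.06 ± 0.23 for Prelp. In all, 2 of 10 were positive and the median was -0.23, with 50.9% positive over all tested genes.

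Whether the AngII response itself differed between genotypes was tested as an interaction, KO response minus WT response. No member was called by edgeR, DESeq2 or limma-voom, and of all tested genes edgeR called 0% (4.03% had an unadjusted p under 0.05). Sdc4 had the lowest unadjusted p of the members, 0.00526 (-0.74 ± 0.25, adjusted p = 1.00), and Acan followed with 0.0258 (-1.34 ± 0.57, adjusted p = 1.00). Lum was at -0.96 ± 0.50, Hapln1 at -0.75 ± 0.54, Fmod at -0.52 ± 0.42, Vcan at -0.47 ± 0.33 and Dcn at -0.38 ± 0.41. Prelp (0.14 ± 0.33), Ogn (0.20 ± 0.36) and Aspn (0.0005 ± 0.32) had values above 0. In these data the smaller responses of Acan and Sdc4 in the KO therefore stand as values, not as called differences.

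The sexes were compared by the difference in AngII response, male minus female. No member was called in WT or in KO by edgeR, DESeq2 or limma-voom, and edgeR called 0% of all genes in both (3.16% and 7.58% had an unadjusted p under 0.05). Hapln1 had the same direction in both genotypes, 1.46 ± 0.76 in WT (unadjusted p = 0.0659) and 1.60 ± 0.76 in KO (unadjusted p = 0.0426, adjusted p = 0.644). In WT males it was at 2.37, 3.06 and 8.15 CPM in controls and 12.3, 12.1 and 17.0 CPM with AngII, a change of 1.59 ± 0.55 (adjusted p = 0.573). In WT females it was at 10.3, 8.26 and 14.3 CPM and 6.25, 14.5 and 15.01 CPM, a change of 0.13 ± 0.53 (adjusted p = 1). In KO females the ranges were 15.5 to 33.8 CPM in controls and 4.22 to 18.65 CPM with AngII, a change of -0.69 ± 0.53. In KO males they were 4.64 to 7.78 and 8.52 to 14.7 CPM, a change of 0.91 ± 0.54. The KO difference thus joins a negative value in females to a positive one in males. The KO control females were the shallowest group, with cartilage sums of 88.5, 29.9 and 27.2 CPM, whose part was not tested. Acan differed little between the sexes in WT (-0.03 ± 0.79) and by -1.02 ± 0.81 in KO.

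Large and small proteoglycans were set against each other within a library by the number of counts per 1000 Dcn counts, a ratio that does not depend on how libraries are scaled. Acan per 1000 Dcn counts was 6.54 to 35.4 (median 14.98) in WT controls and 31.1 to 112 (median 57.3) in WT AngII, with 5 of 6 AngII libraries above all controls. The difference was 1.94 on the log2 scale (exact permutation test within sex, two-sided, p = 0.005, the smallest the 400 arrangements allow, adjusted over 12 tests p = 0.06). In the KO the ratio was 14.2 to 44.2 (median 22.4) in controls and 16.0 to 436 (median 43.0) under AngII, a difference of 1.14 (exact permutation p = 0.13, adjusted 0.705). The value of 436 is KO AngII female replicate 1, which has the lowest Dcn level of the series. Between genotypes the Acan ratio differed by 0.60 in controls (exact permutation p = 0.235) and by -0.20 under AngII (p = 0.81).

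Relative to Dcn, Vcan differed less under AngII than Acan did. Across the 24 libraries log2 CPM of Vcan and Dcn had r = 0.358 and rho = 0.454 (permutation test, adjusted p = 0.204 and 0.103). In KO AngII Vcan ran from 91.5 to 702 counts per 1000 Dcn counts. Its counts per 1000 Dcn counts had medians of 139 in WT controls, 151 in WT AngII, 143 in KO controls and 131 in KO AngII, and AngII differences of 0.08 in WT (exact permutation p = 0.74) and 0.16 in KO (p = 0.89). Hapln1 had medians of 13.1, 16.6, 15.3 and 16.1, and AngII differences of 0.58 in WT (exact permutation p = 0.19) and 0.16 in KO (p = 0.785). None of the 12 ratio tests passed after adjustment, which a single smallest p could not have done in this design.

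**Figure D3:**
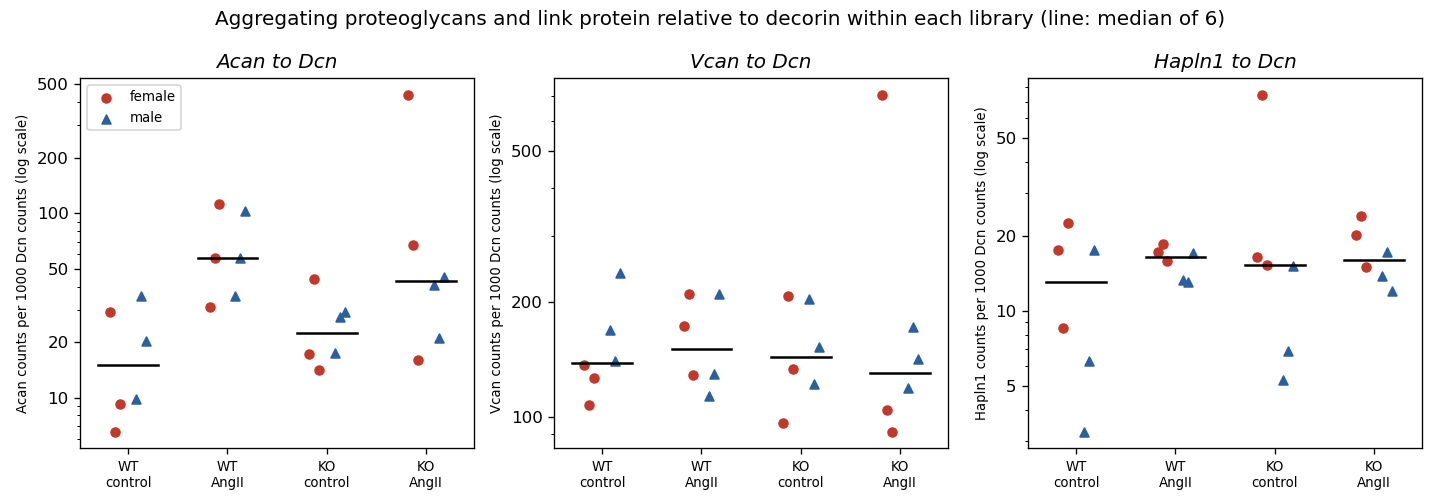
Counts of Acan, Vcan and Hapln1 per 1000 Dcn counts (log axis) in each library of the 4 conditions, with the median of 6 as a line. The Acan medians are 14.98 in WT controls and 57.3 in WT AngII, while those of Vcan are 139 and 151, and 1 KO AngII female stands far above the others in both.

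Members that are neighbours in the genome were compared across the 24 libraries, as 4 of 45 pairs of members for which log2 CPM were correlated. Prelp and Fmod had the highest value of all pairs, Pearson r = 0.912 and Spearman rho = 0.850 (permutation p = 1e-05 for each, the smallest that 100000 permutations can give, adjusted p = 0.000225 and 0.00045). Without the 2 libraries farthest from the median of Fmod r was 0.798, and within groups, after group means were removed, 0.879. In each pair these 2 libraries were taken by the gene named earlier in the opening list of members. Extremes of the other gene could therefore remain. Dcn and Lum had r = 0.654 (permutation p = 0.00038, adjusted p = 0.00428) and rho = 0.738 (permutation p = 8e-05, adjusted p = 0.0012), with 0.751 without the 2 farthest libraries and 0.766 within groups. Ogn and Aspn (r = 0.343, rho = 0.292, permutation p = 0.1 and 0.166) and Vcan and Hapln1 (r = 0.0676, rho = 0.0574, permutation p = 0.755 and 0.788) did not pass. Without the 2 farthest libraries r was 0.214 and -0.0923. Thus 2 of the 4 neighbouring pairs passed.

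Sdc4, which lies on another chromosome, followed Fmod (r = 0.789, rho = 0.753, permutation p = 1e-05 and 7e-05, adjusted p = 0.000225 and 0.0012) and Prelp (r = 0.674, rho = 0.598, permutation p = 0.00026 and 0.00236, adjusted p = 0.0039 and 0.0212). Vcan with Prelp (r = 0.586, rho = 0.627, adjusted permutation p = 0.0202 and 0.0145) and with Fmod (r = 0.541, rho = 0.588, adjusted permutation p = 0.0409 and 0.0241) completed the 6 pairs that passed on both measures. The unadjusted permutation p were 0.00224 and 0.00129 for Vcan with Prelp and 0.00545 and 0.00321 for Vcan with Fmod. Without the 2 libraries farthest for the first gene named, r was 0.806 for Fmod with Sdc4, 0.637 for Prelp with Sdc4 and 0.474 for Vcan with Prelp. The median r over the 45 pairs was 0.27 and 40 were above 0. Without the 2 farthest libraries the r of Vcan and Fmod was 0.408 and within groups 0.502. Dcn and Ogn had r = 0.512 but rho = 0.0487 (permutation p = 0.0141 and 0.822), and without the 2 farthest libraries r was -0.0271, so the pooled relation rests on those libraries. After group means were removed r was 0.678 with all libraries. The libraries belong to 8 groups and all pairs share library and depth.

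**Figure D4:**
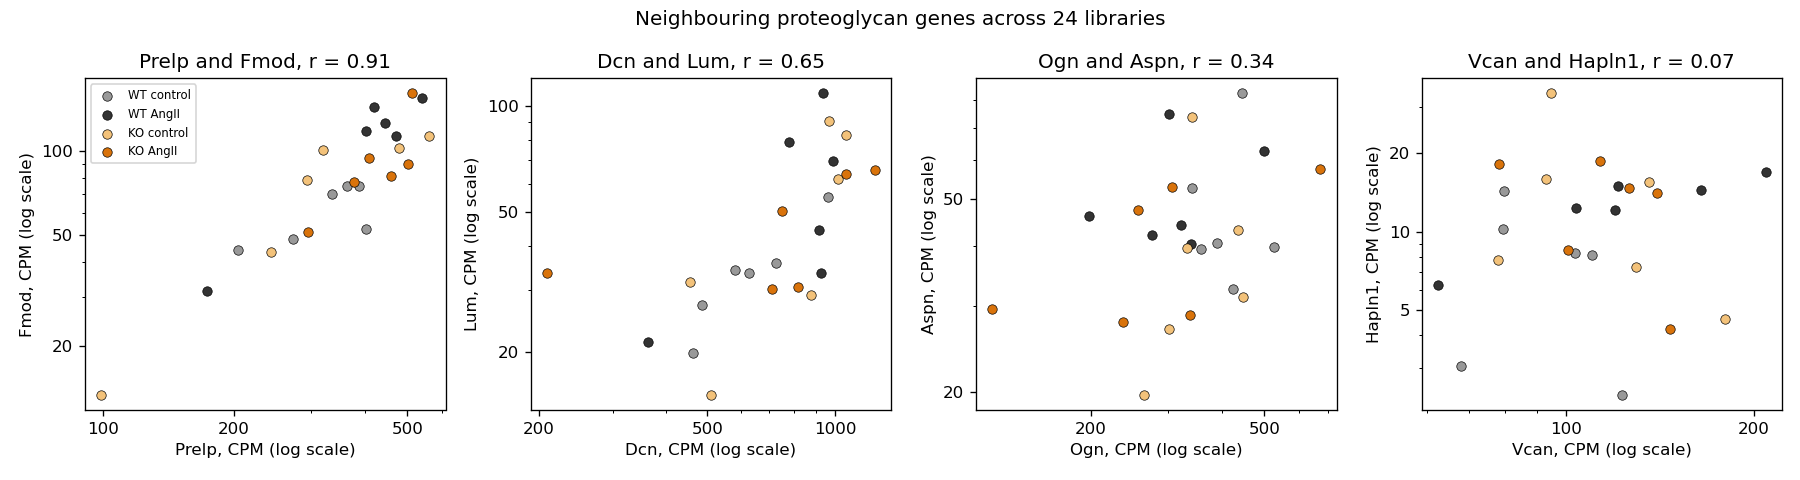
CPM of the 2 genes of each neighbouring pair (log axes), 1 point per library, coloured by condition. The points of Prelp and Fmod lie along a line (r = 0.91), those of Dcn and Lum more loosely (r = 0.65), and those of Ogn and Aspn and of Vcan and Hapln1 scatter.

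The genes whose levels were most like those of Acan over the 24 libraries, among 10864 ranked, were Sulf1 (r = 0.800), Col5a2 (0.796), Htra1 (0.790), Fn1 (0.784) and Igfbp7 (0.782). Sulf1 removes sulfate from heparan sulfate chains, Col5a2 and Fn1 encode fibrillar collagen and fibronectin chains of the matrix, and Htra1 is a secreted protease. The genes most like Dcn were Dpt (0.775), Pik3cg (0.767), Prr33 (0.754), Tmed10 (0.752) and Vopp1 (0.742), where Dpt encodes dermatopontin, a fibroblast matrix protein known to bind decorin. No gene stood in both lists of 5. These values are descriptions over libraries that share groups and depth, with no test.

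The wider proteoglycan machinery was read under AngII in WT from lists of families and enzymes. Of 5 tested aggregating proteoglycans and link proteins, 4 were higher and 1, Acan, was called. The brain lecticans Ncan (-0.17 ± 0.75, 4.43 to 3.99 CPM) and Bcan (0.17 ± 1.12, 1.58 to 1.65 CPM) had low levels. Among 14 tested small leucine-rich proteoglycans 7 were higher and 0 called, with Tsku at 1.11 ± 0.47 (adjusted p = 0.606) and Podn at 0.35 ± 0.19 (0.796). Of 11 cell surface proteoglycans 6 were higher and Sdc4 was called. Sdc3, another syndecan, was at 0.74 ± 0.28 (adjusted p = 0.512) and Gpc5, a glypican, at -4.22 ± 1.48 (0.450) from mean levels of 1.62 and 0.0968 CPM. Cd74, the invariant chain that can carry chondroitin sulfate, was the list gene called between genotypes in control mice. It was 2.64 ± 0.50 higher in KO (SE, edgeR, adjusted p = 0.0100). Its level was 45.2 ± 21.2 CPM in WT controls and 288 ± 277 CPM in KO controls (SD), a KO spread about as wide as the mean.

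Among 9 other secreted proteoglycans 5 were higher and 1 called: Col18a1, a basement membrane collagen that carries heparan sulfate, rose by 1.33 ± 0.24 (564 to 1435 CPM, adjusted p = 0.00957). In the KO its change was 1.06 ± 0.24 (561 to 995 CPM, adjusted p = 0.165). Of 16 genes of heparan sulfate synthesis and editing 11 were higher and 1 called, Sulf1, by 0.95 ± 0.20 (326 to 633 CPM, adjusted p = 0.0265), against 0.70 ± 0.20 in the KO (adjusted p = 0.298). The interaction values were -0.27 ± 0.33 for Col18a1 and -0.25 ± 0.28 for Sulf1, neither called.

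Genes that build the chains of aggrecan and versican were not called. Of 26 tested for the linker and for chondroitin or dermatan sulfate, 16 were higher (median 0.10), with Chpf, a chondroitin polymerising factor, at 0.85 ± 0.25 (20.2 to 36.7 CPM, adjusted p = 0.247) and B3galt6, a linker enzyme, at 3.34 ± 1.26 (0.585 to 2.33 CPM, 0.517). Of the 3 tested for keratan sulfate 2 were higher, with Chst1 at -0.49 ± 0.54 and B4galt4 at 0.36 ± 0.40. Hyaluronan genes had 6 of 14 higher and 0 called, among them the hyaluronan receptor Cd44 at 0.98 ± 0.37 (adjusted p = 0.501) and Itih4 at -0.85 ± 0.27 (0.339). Proteases that cleave proteoglycans and their inhibitor had 5 of 9 higher and 0 called, with Mmp2 at 0.69 ± 0.26 (0.505) and Timp3, which inhibits aggrecanases, at 0.48 ± 0.18 (0.528). Cartilage-type matrix genes and transcription factors had 10 of 17 higher and 0 called, with Sox9, the regulator of Acan in cartilage, at 1.27 ± 0.62 (3.35 to 8.23 CPM, 0.745) and Comp at 0.99 ± 0.49 (0.747).

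In the KO under AngII none of these lists had a called gene. Chain synthesis genes for chondroitin or dermatan sulfate had 18 of 26 higher (median 0.40), and cell surface proteoglycans 8 of 11 (median 0.19). Among the cell markers, macrophage genes had 2 of 10 higher (median -0.47), fibroblast genes 9 of 11 (0.27), smooth muscle genes 6 of 6 (0.19), adipocyte genes 7 of 8 (0.48), cartilage genes 3 of 7 (-0.82), endothelial genes 0 of 7 (-0.42) and neural and Schwann genes 0 of 7 (-2.33), with 0 called, and their part was not tested. Sox9 was at 0.02 ± 0.59, Cd44 at -0.28 ± 0.37 and Comp at 1.21 ± 0.52 (adjusted p = 0.601).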

How the data were processed

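The data are total RNA libraries of 24 mouse aortas. The authors deposited 1 table of raw counts per gene, without normalization. The submitters' processing notes name featureCounts 1.4.6, Bowtie2 2.2.5, TopHat2 2.0.14, cutadapt 1.8.1 and the build mm10. Settings, strandedness and annotation release are not given in the sources used here. Per the labels' protocols, TRIzol extraction was followed by DNase, ribosomal RNA depletion and fragmentation. Every column was matched to its mouse by the sample labels.

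Genes were filtered with filterByExpr (minimum count 10, minimum total 15), scaled by TMM and fitted with edgeR 4.0.16 (R 4.3.3) by quasi-likelihood, with the 8 groups as coefficients of 1 model. Contrasts are means over both sexes, two-sided, with Benjamini-Hochberg adjustment over the 16316 genes tested, and called means an adjusted p under 0.05. Standard errors are the log2 change divided by the square root of F. log2 CPM used a prior count of 2, and ratios to Dcn had 0.5 added to each count. Alternatives used DESeq2 1.42.0, limma 3.58.1 (voom), other scalings and filters, the single-sex contrasts of the same fit, and fits without 1 library. Gene models were GENCODE M21. Scripts were tested on simulated data. Libraries of a group differed beyond counting noise and each counted as 1 replicate; p-values measure the spread between these mice.

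All 10 members were named in every comparison. Of other lists the called genes were named, at most 4 per list and comparison, or where none was called under AngII in WT the 2 with the smallest p there. Likeness was ranked by Pearson r among genes with a known symbol. The members and lists were chosen with earlier results of these data known.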

Additional observations from a re-analysis of the deposited data

Results flagged for a closer look

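Each of the 10 members was looked at in each condition of 6 libraries for a lowest or highest library far from the rest, 40 sets in all. In 3 sets 1 library stood apart, and chance gives about 1 in 20.

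Dcn in WT AngII female replicate 1 was 361.5 CPM, and the next lowest library was at 778.4 CPM. Fmod in the same library was 31.52 CPM, against 113.4 CPM in the next. This library also had the lowest smooth muscle sum of its condition (11351 CPM) and the highest adipocyte (1330 CPM), endothelial (1042 CPM) and macrophage (232.4 CPM) sums, whose part was not tested. Sdc4 in KO AngII female replicate 3 was 55.67 CPM, against 68.3 CPM in the next, in a condition whose 6 libraries span no more than 55.67 to 72.26 CPM. Without that library Sdc4 in KO against WT under AngII was -0.66 (edgeR, adjusted p = 0.208).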

How the results depend on the processing

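Acan under AngII in WT kept its call in 9 of 11 other settings, and Sdc4 in 9 of 11. Over all 11 Acan was 2.41 to 2.56 (adjusted p 8.05e-15 to 0.291). Both lost it with females alone or males alone, where 0 members were called. These single-sex settings, counted among the 11, are the female and male contrasts of the report's own fit and not new fits. The main value is their mean. Over settings other than leaving out 1 library, 537 of 594 single values kept direction and call, 4 weakened, 6 strengthened and 47 reversed. None of the values that reversed was called in the report's own fit, where their lowest adjusted p was 0.742. Under an alternative setting none of them was called either. Where no value below shows the cause of a change, the cause was not tested. Counts of members called moved from 0 to 1 under AngII in KO with no count filter, and from 0 to 1 in KO against WT under AngII with DESeq2, limma-voom and without KO control female replicates 1 and 3. With 1 library left out they were 1 to 3 under AngII in WT and 0 to 1 in KO against WT under AngII. Calls over all genes under AngII in WT were 34 in edgeR, 80 in DESeq2, 329 in limma-voom, 134 with no filter and 68 without KO control female replicates 1 and 3. In KO against WT controls they were 36, 167, 43, 260 and 3, and under AngII 58, 146, 200, 182 and 75. The median over all genes moved by over 0.1 in the sex difference within the KO, from -0.12 to 0.05 with other size factors and -0.22 with limma-voom.

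Reversed values were as follows. In KO against WT under AngII, Dcn was 0.01887 (DESeq2), 0.03218 (at least 50 counts in 3 libraries), 0.01873 (RLE factors), 0.001277 (groups compared alone) and 0.08032 (females), and Ogn 0.02279, 0.03436, 0.02285, 0.00618 and 0.13. The Aspn interaction was -0.006943 (DESeq2), -0.007702 (at least 50 counts), -0.005703 (RLE), -0.29 (females) and -0.25 (limma-voom). Females alone gave Dcn -0.06394 under AngII in WT, Vcan 0.06925, Hapln1 -0.69 and Aspn -0.04433 under AngII in KO, Fmod -0.51 and Sdc4 -0.68 in KO against WT controls, Acan 0.008952 in KO against WT under AngII and Fmod 0.0703 in the interaction. Males alone gave Aspn -0.06708 under AngII in WT, Dcn 0.0787 and Sdc4 -0.35 under AngII in KO, Prelp 0.45 between control genotypes, Hapln1 -0.15 between genotypes under AngII, and interactions of -0.39 (Prelp) and -0.05463 (Ogn). limma-voom gave Dcn 0.06236 and Lum 0.15 under AngII in KO and Hapln1 -0.01013 between genotypes under AngII. No count filter gave Vcan 0.01723 and Dcn 0.005161 under AngII in KO, Hapln1 -0.001638 between genotypes under AngII and Acan 0.01967 in the WT sex difference. The groups compared alone gave Vcan 0.003607 under AngII in KO. Without KO control female replicates 1 and 3, AngII in KO gave Vcan 0.10, Hapln1 -0.19, Dcn 0.40 and Lum 0.32, KO against WT controls Dcn -0.10 and Sdc4 -0.03117, KO against WT under AngII Hapln1 -0.003411, and the Dcn interaction 0.06061. In the log2 ratios, 9 of 66 reversed. With Lum in place of Dcn, Vcan under AngII in WT was -0.26. With Prelp, Vcan was -0.51 (AngII in KO), 0.44 (control genotypes) and -0.19 (genotypes under AngII), and Hapln1 -0.50 and -0.19. Without KO control female replicates 1 and 3, the Vcan ratios were -0.13 (AngII in KO) and 0.28 (control genotypes), and Hapln1 -0.5712 (AngII in KO).

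With 1 library left out, 1249 of 1344 single values were unchanged in direction and call and 83 reversed. Ranges of those with a reversal were: AngII in WT, Aspn -0.03616 to 0.34; AngII in KO, Vcan -0.12 to 0.16, Dcn -0.31 to 0.20, Lum -0.37 to 0.34, Aspn -0.05075 to 0.34, Ogn -0.51 to 0.07001 and Hapln1 -0.02155 to 0.38; control genotypes, Sdc4 -0.11 to 0.13, Prelp -0.28 to 0.0866 and Fmod -0.18 to 0.40; genotypes under AngII, Hapln1 -0.15 to 0.23, Prelp -0.12 to 0.15, Vcan -0.31 to 0.0257, Dcn -0.35 to 0.19 and Ogn -0.43 to 0.19. Interactions were Aspn -0.25 to 0.26, Prelp -0.03033 to 0.33 and Ogn -0.16 to 0.45, and the Acan sex difference in WT -0.63 to 0.94. Of the ratios 17 of 144 reversed: Vcan -0.15 to 0.12 (control genotypes), -0.05718 to 0.18 (AngII in WT), -0.40 to 0.33 (genotypes under AngII) and -0.32 to 0.42 (AngII in KO), Acan -0.82 to 0.37 (genotypes under AngII) and Hapln1 -0.03354 to 0.53 (AngII in KO).

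Replicate numbers in the labels showed no clear pairing of libraries. Over 84 same-numbered pairs of different groups the correlation of deviations was -0.10 to 0.13 (mean 0.004), and 2 pairs exceeded 0.1. Over 168 differently numbered pairs it was -0.12 to 0.105 (mean -0.002), and 1 exceeded 0.1. In all, 10 of 24 libraries were closest to their own number. A weak pairing could be missed by this check. With the replicate block in edgeR, Acan under AngII in WT was 2.46 (adjusted p = 0.01351) and Sdc4 0.84 (0.03084), with 24 genes called. Sdc4 in KO against WT under AngII was -0.67 (0.1086) and the Aspn interaction -0.03952. The Acan to Dcn ratio under AngII in WT was 1.94 (exact permutation within sex and replicate number, adjusted p = 0.375). These blocks allow so few arrangements that 0.375 is the lowest adjusted value a single smallest p could reach. It therefore cannot show whether the ratio result weakens with the block.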
